A study of Arabidopsis thaliana with 36 samples.

Results

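The circadian clock of *Arabidopsis* was followed through 10 of its core genes, *LHY*, *CCA1*, *PRR9*, *PRR7*, *PRR5*, *TOC1*, *GI*, *ELF3*, *ELF4*, and *LUX*, while lateral roots were being induced by gravistimulation. The genes were taken by locus from a table of raw read counts with 37973 rows, and all 10 had enough reads to be tested among 25889 genes. RNA had been sequenced from root segments of Col-0 wild type (WT) and of the *puchi-1* mutant, which carries a mutation in the AP2/ERF transcription factor gene *PUCHI*. Seedlings of both genotypes had been grown in continuous light and turned by gravity stimulation to induce a lateral root at the bend, and bends were harvested at 12, 18, 24, 30, and 36 hours post-gravistimulation (hpg). A segment directly above the bend, with no primordium, served as the ‘No LR’ reference, which the study's methods place at 12 hpg and the labels at 9 h. Each of the 12 groups held 3 replicates of pooled seedlings. A bend segment holds many cell types besides the primordium, so fewer cells of a type and less RNA per cell cannot be told apart. The clock time at which the seedlings were turned is not given in the sources used here, so phases are given in hpg and not as times of day.

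The plant clock is a set of repressors that follow each other through the day. The Myb factors LHY and CCA1 accumulate at dawn and repress evening genes through a promoter sequence called the evening element. The pseudo-response regulators PRR9, PRR7, PRR5, and TOC1 then rise in that order and repress *CCA1* and *LHY*. GI acts in the evening with the F-box protein ZTL, and ELF3, ELF4, and LUX form the evening complex, which represses *PRR9* among other genes. The clock runs in roots as well as in leaves, and auxin signalling during lateral root initiation is known to be tied to it. In TAIR10.1 coordinates, the dawn genes are *LHY* (AT1G01060) at chr1:33365-37871 on the minus strand and *CCA1* (AT2G46830) at chr2:19245591-19248915 on the plus strand. The pseudo-response regulator genes are *PRR9* (AT2G46790) at chr2:19232607-19235179 on the plus strand, *PRR7* (AT5G02810) at chr5:637681-642030 on the minus strand, *PRR5* (AT5G24470) at chr5:8356204-8358546 on the minus strand, and *TOC1* (AT5G61380) at chr5:24674963-24678550 on the plus strand. The evening genes are *GI* (AT1G22770) at chr1:8061751-8067790 on the plus strand, *ELF3* (AT2G25930) at chr2:11058944-11063324 on the plus strand, *ELF4* (AT2G40080) at chr2:16734294-16734953 on the minus strand, and *LUX* (AT3G46640) at chr3:17183042-17186959 on the plus strand.

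Shown are 6 promoters that hold a G-box or an evening element, both known elements of clock promoters, and *LUX* holds both. Each is the 250 bases upstream of the annotated gene start in the TAIR10.1 genome of RefSeq, which is the build of the counts, read 5′ to 3′ on the strand of the gene. Capitals mark the G-box (CACGTG), bound by bHLH and bZIP factors, and the evening element (AAAATATCT), on either strand.
*LHY*, chr1:37872-38121, minus strand: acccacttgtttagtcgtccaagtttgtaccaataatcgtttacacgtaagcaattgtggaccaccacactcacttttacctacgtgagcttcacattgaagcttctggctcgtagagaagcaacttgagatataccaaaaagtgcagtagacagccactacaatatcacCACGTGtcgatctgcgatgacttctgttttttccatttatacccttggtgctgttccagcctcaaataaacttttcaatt
*CCA1*, chr2:19245341-19245590, plus strand: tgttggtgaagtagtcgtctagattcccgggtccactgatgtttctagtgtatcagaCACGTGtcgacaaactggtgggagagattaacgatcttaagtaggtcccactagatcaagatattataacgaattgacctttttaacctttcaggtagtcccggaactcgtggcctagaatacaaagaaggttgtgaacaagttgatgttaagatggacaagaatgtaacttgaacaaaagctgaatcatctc
*PRR9*, chr2:19232357-19232606, plus strand: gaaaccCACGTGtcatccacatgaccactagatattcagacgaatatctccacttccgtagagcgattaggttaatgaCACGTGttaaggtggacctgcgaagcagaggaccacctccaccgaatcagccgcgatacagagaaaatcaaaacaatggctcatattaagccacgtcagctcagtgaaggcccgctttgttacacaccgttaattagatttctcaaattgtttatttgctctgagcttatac
*PRR7*, chr5:642031-642280, minus strand: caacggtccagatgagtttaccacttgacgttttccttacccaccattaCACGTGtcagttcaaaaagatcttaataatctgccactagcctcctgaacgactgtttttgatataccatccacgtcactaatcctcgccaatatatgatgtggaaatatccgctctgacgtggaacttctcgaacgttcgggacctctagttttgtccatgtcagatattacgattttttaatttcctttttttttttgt
*TOC1*, chr5:24674713-24674962, plus strand: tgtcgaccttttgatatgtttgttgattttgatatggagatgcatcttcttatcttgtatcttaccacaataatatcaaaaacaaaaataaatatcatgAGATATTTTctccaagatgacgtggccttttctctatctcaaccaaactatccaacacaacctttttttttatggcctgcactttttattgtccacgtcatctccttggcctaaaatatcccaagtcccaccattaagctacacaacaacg
*LUX*, chr3:17182792-17183041, plus strand: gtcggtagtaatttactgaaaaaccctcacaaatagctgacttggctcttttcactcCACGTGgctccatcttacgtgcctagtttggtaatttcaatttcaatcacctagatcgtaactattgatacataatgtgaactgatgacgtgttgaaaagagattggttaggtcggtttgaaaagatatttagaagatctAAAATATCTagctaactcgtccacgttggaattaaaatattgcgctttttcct

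The G-box was found in 5 of the 10 promoters (*LHY*, *CCA1*, *PRR9*, *PRR7*, and *LUX*) and in 6.49% of 27437 promoters of the same length. The evening element was found in *PRR5*, *TOC1*, and *LUX*, 3 of 10, and in 2.36% of all promoters. *PRR9* held its G-boxes at positions -244 and -172 from the gene start, and *LHY* held its own at -80. The *TOC1* evening element lay at -151 on the minus strand and that of *LUX* at -53 on the plus strand. A shorter CCA1-binding site, AAAAATCT, was found in *PRR5* alone (6.69% of all promoters). Of the binding sequences of LUX, GATACG was found in *ELF3* and *ELF4* (4.6%) and GATTCG in *PRR9* (7.88%). Both strands were searched, none of these motifs contains another, and a match in letters is a description and not a site.

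The libraries held 31.7 to 121.58 M counts (M, 1000000 counts), with a median of 48.1 M. The lowest gene of the 10 was *PRR9*, with 19 to 526 reads per library, and the other 9 had at least 226. *PUCHI* itself was at 5.16 to 20.2 CPM (counts scaled by library size, per 1000000) in the WT and at 9.47 to 40.6 CPM in *puchi-1*, with no overlap between genotypes within any of the 6 sampling points. *PUCHI* mRNA was thus higher in the mutant, and its level does not show whether the protein functions. The 8 markers of the endodermal barrier (*CASP1* to *CASP5*, *MYB36*, *ESB1*, and *PER64*) had a mean log2 CPM of 5.34 to 6.10 at 12 hpg and at most 3.95 at every later time point. The 6 root hair markers stood at 4.44 to 5.74 at 12 hpg and at most at 3.91 later. Only *CASP5*, *EXPA7*, and *RSL4* were at 0 reads in any library, and none of these at 12 hpg. In ‘No LR’ segments replicate 1 stood apart in both genotypes, with barrier means of 6.01 in the WT and 5.97 in *puchi-1* against -0.67 to 1.65 in replicates 2 and 3. The 12 hpg bends, where *LHY*, *CCA1*, *PRR9*, and *PRR7* were lowest, were also the bends with most barrier and root hair RNA, and the part of this in the results was not tested.

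**Figure D1:**
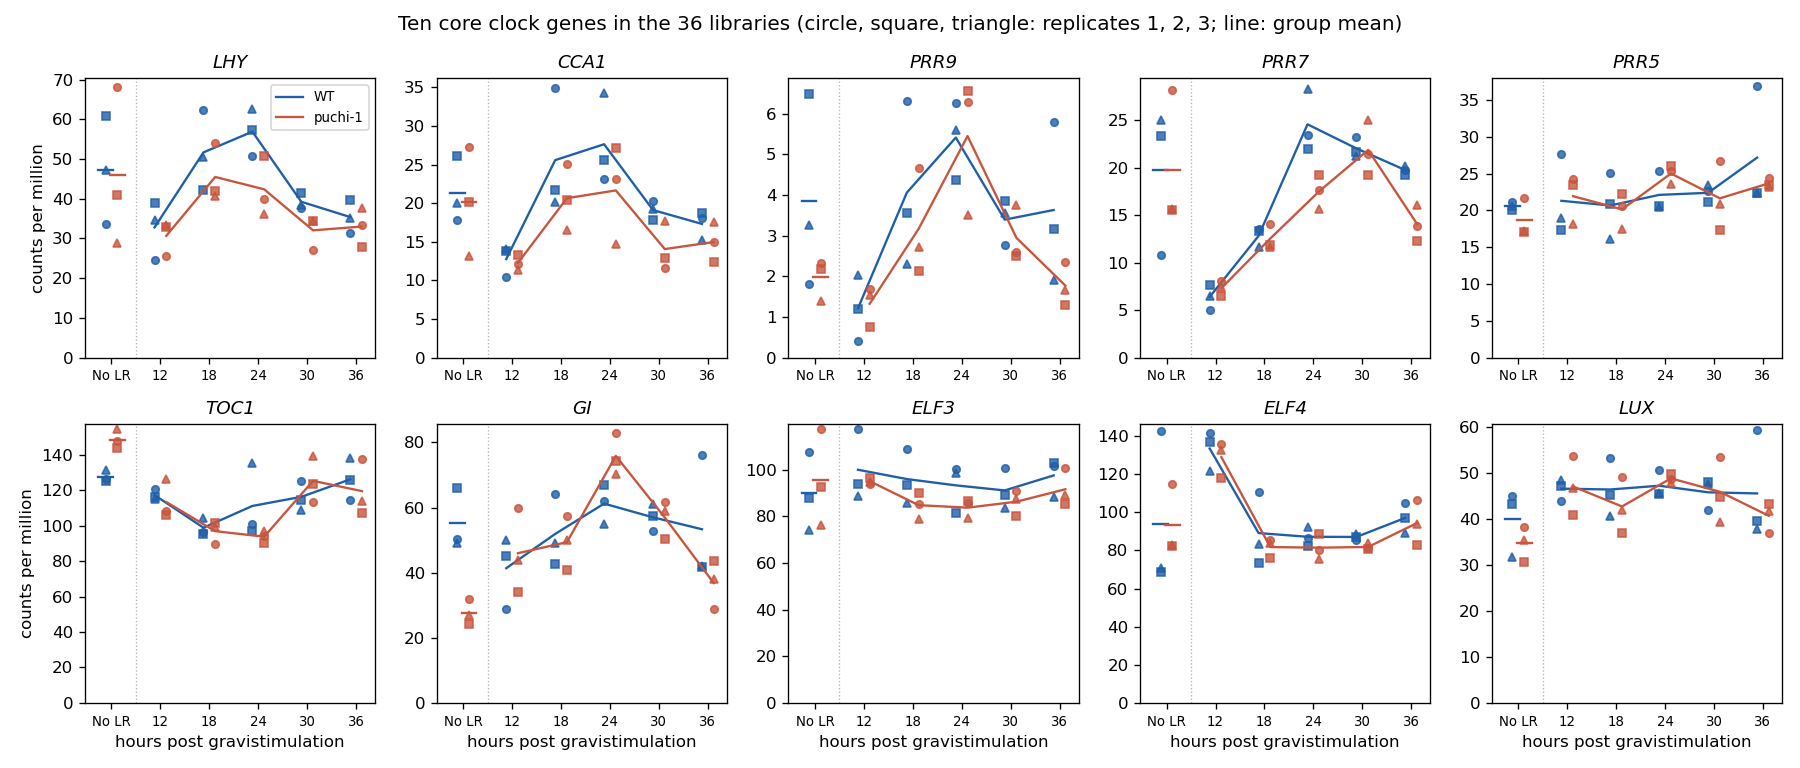
CPM of the 10 clock genes (y axis, from 0) in every library against the sampling point (x axis) for the WT and *puchi-1*, with lines through the group means of the bends and a short bar at the ‘No LR’ mean. *LHY*, *CCA1*, and *PRR9* crest at 18 to 24 hpg in both genotypes, *TOC1* dips there, and *ELF3* and *LUX* stay nearly level.

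*LHY* was highest at 18 to 24 hpg in the WT and lower again by 30 hpg. In the WT it was at 24.7, 39, and 34.6 CPM in replicates 1 to 3 at 12 hpg, and at 62.4, 42.2, and 50.4 CPM at 18 hpg. It then stood at 50.7, 57.4, and 62.6 CPM at 24 hpg, and at 37.8, 41.5, and 38.4 CPM at 30 hpg. At 36 hpg it was at 31.3, 39.7, and 35.1 CPM. The 12 and 24 hpg libraries did not overlap, whereas those of 12 and 36 hpg did. By edgeR's quasi-likelihood test *LHY* rose from 12 to 24 hpg by a log2FC of 0.80 ± 0.23 (SE, adjusted p = 0.0258). The call was lost without 12 hpg replicate 1 (0.109), 24 hpg replicate 2 (0.053), or 24 hpg replicate 3 (0.0808). From 12 to 36 hpg the log2FC was 0.11, with a 95% interval of -0.37 to 0.59 (adjusted p = 0.743). In *puchi-1* the 5 time points gave 25.7, 32.9, and 33.4 CPM at 12 hpg and 54, 41.8, and 40.6 CPM at 18 hpg. They were followed by 40, 50.8, and 36.2 CPM at 24 hpg and 27.2, 34.4, and 34.5 CPM at 30 hpg, with 33.4, 27.9, and 37.7 CPM at 36 hpg. The *puchi-1* mean was highest at 18 hpg and lowest at 12 hpg, and its 24 against 12 hpg difference was 0.47 ± 0.23 (adjusted p = 0.202).

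*CCA1*, the partner of *LHY*, had its lowest mean at 12 hpg in both genotypes. Its WT libraries were at 10.5, 13.8, and 14 CPM at 12 hpg, at 35, 21.7, and 20.1 CPM at 18 hpg, and at 23.1, 25.6, and 34.2 CPM at 24 hpg. They were at 20.3, 17.8, and 19.3 CPM at 30 hpg and at 18, 18.7, and 15.2 CPM at 36 hpg. Every later WT library lay above the 12 hpg libraries. In *puchi-1* the gene was at 12.2, 13.3, and 11.3 CPM at 12 hpg, at 25, 20.4, and 16.5 CPM at 18 hpg, and at 23.1, 27.2, and 14.7 CPM at 24 hpg. From there it stood at 11.6, 12.9, and 17.7 CPM at 30 hpg and at 15, 12.3, and 17.6 CPM at 36 hpg. *CCA1* rose from 12 to 24 hpg in both genotypes, with log2FC values of 1.12 ± 0.25 (adjusted p = 0.00584) for the WT and 0.82 ± 0.25 (adjusted p = 0.0384) for *puchi-1*. The *puchi-1* call was lost on leaving out any of 5 of its 6 libraries (all but 24 hpg replicate 3), with adjusted p of 0.0682 to 0.175. In the WT, 36 hpg differed from 12 hpg by 0.44 (95% interval -0.07 to 0.95), and the difference did not pass the test.

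*PRR9* and *PRR7*, which follow the dawn genes, had the widest range of the 10. *PRR9* in the WT was at 0.411, 1.18, and 2.03 CPM at 12 hpg, at 6.32, 3.56, and 2.3 CPM at 18 hpg, and at 6.26, 4.37, and 5.6 CPM at 24 hpg. It was at 2.78, 3.85, and 3.55 CPM at 30 hpg and at 5.8, 3.17, and 1.92 CPM at 36 hpg. All 3 libraries of 24 hpg lay above all 3 of 12 hpg, and replicate 1 of 36 hpg was the only late library at the level of the crest. In *puchi-1* it was at 1.68, 0.757, and 1.54 CPM at 12 hpg, at 4.66, 2.13, and 2.71 CPM at 18 hpg, and at 6.29, 6.56, and 3.5 CPM at 24 hpg. The level was then 2.59, 2.49, and 3.74 CPM at 30 hpg, and 2.36, 1.29, and 1.66 CPM at 36 hpg. *PRR9* rose from 12 to 24 hpg by 2.16 ± 0.51 in the WT (adjusted p = 0.0073) and by 2.05 ± 0.51 in *puchi-1* (adjusted p = 0.0118). The *puchi-1* call was lost without 12 hpg replicate 2 (adjusted p = 0.0636).

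*PRR7* was called in every comparison of WT time points in the bends. In the WT it was at 5.06, 7.63, and 6.5 CPM at 12 hpg, at 13.5, 13.3, and 11.7 CPM at 18 hpg, and at 23.5, 22, and 28.3 CPM at 24 hpg. It stayed at 23.2, 21.7, and 21.2 CPM at 30 hpg and at 19.8, 19.3, and 20.2 CPM at 36 hpg. These groups did not overlap between 12, 18, and 24 hpg, and the level at 36 hpg was still above that of 18 hpg. In *puchi-1* it was at 8.03, 6.53, and 7.39 CPM at 12 hpg, at 14.1, 11.9, and 11.7 CPM at 18 hpg, and at 17.7, 19.3, and 15.7 CPM at 24 hpg. Its highest values, 21.4, 19.2, and 25 CPM, came at 30 hpg, and 36 hpg had 13.8, 12.3, and 16.1 CPM. *PRR7* rose from 12 to 24 hpg by 1.94 ± 0.23 in the WT (adjusted p = 4.75e-05) and by 1.26 ± 0.23 in *puchi-1* (adjusted p = 0.00115). *PRR7* also rose from 18 to 30 hpg in the WT, by 0.78 (adjusted p = 0.0486). That call was lost on leaving out any of the 6 libraries of those groups (adjusted p of 0.0914 to 0.144).

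*PRR5*, the next regulator in the series, showed no course of its own. Its WT libraries ranged from 16.1 CPM (18 hpg replicate 3) to 36.9 CPM (36 hpg replicate 1), and those of *puchi-1* from 17.1 CPM in a ‘No LR’ segment to 26.7 CPM at 30 hpg. Every pair of neighbouring groups overlapped. With all libraries in the fit, no comparison of time points called *PRR5*. Without WT 12 hpg replicate 1, edgeR called it for 36 against 12 hpg in the WT (log2FC of 0.61, adjusted p = 0.0245).

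*TOC1*, the evening regulator, had its lowest bend mean at 18 hpg in the WT (98.8 CPM) and at 24 hpg in *puchi-1* (93.8 CPM). In the WT it was at 120, 116, and 115 CPM at 12 hpg and at 96.6, 95.5, and 104 CPM at 18 hpg. It was at 101, 97.1, and 135 CPM at 24 hpg, at 125, 114, and 109 CPM at 30 hpg, and at 114, 126, and 138 CPM at 36 hpg. Replicate 3 of 24 hpg, the highest *LHY* library of the WT bends, was also the second highest *TOC1* library of the WT bends, whereas the other 24 hpg libraries were low. In *puchi-1* the values were 108, 106, and 126 CPM at 12 hpg, 89.9, 101, and 99.4 CPM at 18 hpg, and 94.2, 90.2, and 96.9 CPM at 24 hpg. They were 113, 123, and 139 CPM at 30 hpg and 138, 107, and 114 CPM at 36 hpg. The *puchi-1* libraries of 18 and 24 hpg all lay below those of 12, 30, and 36 hpg.

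*GI* crested at 24 hpg in *puchi-1* with little spread between replicates. It was at 59.8, 34.1, and 44 CPM at 12 hpg, at 57.3, 40.8, and 50 CPM at 18 hpg, and at 82.8, 74.4, and 70.3 CPM at 24 hpg. It was at 61.6, 50.4, and 58.9 CPM at 30 hpg and at 28.9, 43.5, and 38 CPM at 36 hpg. The 24 hpg libraries lay above every other *puchi-1* library. In the WT the corresponding values were 28.9, 45.1, and 50.1 CPM at 12 hpg, 64.2, 42.5, and 49 CPM at 18 hpg, and 61.9, 66.8, and 54.9 CPM at 24 hpg. They were 52.7, 57.3, and 61 CPM at 30 hpg and 76.3, 41.7, and 42 CPM at 36 hpg, where replicate 1 stood far above the others. *GI* rose from 12 to 24 hpg in *puchi-1* by 0.72 ± 0.23 (adjusted p = 0.0441), a call lost on leaving out any of 5 of the 6 libraries (all but 12 hpg replicate 1, adjusted p of 0.0818 to 0.177). The WT difference was 0.57 ± 0.23 (adjusted p = 0.0945).

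Of the evening complex, *ELF4* alone changed with time. *ELF4* fell from 142, 137, and 122 CPM at 12 hpg to 111, 73.4, and 83.3 CPM at 18 hpg in the WT and then stayed between 82.5 and 105 CPM. In *puchi-1* it was at 136, 118, and 133 CPM at 12 hpg and between 75.5 and 106 CPM in all later bends. The 12 hpg libraries lay above every later bend in each genotype. From 12 to 24 hpg *ELF4* fell by 0.61 on the log2 scale in the WT (adjusted p = 0.0285) and by 0.66 in *puchi-1* (adjusted p = 0.0248). The WT call was lost without any of 5 libraries (all but 12 hpg replicate 3, adjusted p of 0.0641 to 0.0858), and the *puchi-1* call without 12 hpg replicates 1 or 3 or 24 hpg replicates 1 or 3 (adjusted p of 0.0736 to 0.0993). *ELF3*, the scaffold of the complex, ranged only from 81.2 to 118 CPM over the WT bends and from 78.7 to 101 CPM over those of *puchi-1*. *LUX*, its DNA-binding member, ranged from 37.9 to 59.2 CPM and from 37 to 53.6 CPM. *ELF3* overlaps AT2G25940 and an antisense gene, and *LUX* overlaps AT3G46650, all on the other strand. The counts used strand.

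A 24 h wave was tested by fitting a cosine and a sine of that period to the 5 bend time points of a genotype. It passed an adjusted p under 0.05 for *PRR7* (0.00177), *CCA1* (0.0179), and *LHY* (0.0378) in the WT. These were 3 of 10, where 3.82% of all genes passed. In *puchi-1* it passed for *PRR7* (0.00552), *TOC1* (0.0299), *GI* (0.0305), and *PRR9* (0.0349), 4 of 10 against 1.84% of all genes. *CCA1* had an adjusted p of 0.0752 and *LHY* of 0.203 in *puchi-1*, and *PRR9* one of 0.0851 and *TOC1* one of 0.178 in the WT. The 5 time points span a single cycle of 24 h, so the period could not be estimated. Only 36 against 12 hpg repeats a phase, and only if the period is 24 h. With a linear trend in the fit only *PRR7* remained in the WT (1 of 10, adjusted p = 0.0476) and 0 in *puchi-1*. Over all 25889 genes only 8 passed in the WT and 15 in *puchi-1* with that trend. In *puchi-1* 7 of 10 had an unadjusted p under 0.05, as did 1901 of all genes. A fit without the 12 hpg bends, chosen after seeing the data, kept *PRR7* in the WT, where *LHY* had an adjusted p of 0.075 and *CCA1* one of 0.0918. In *puchi-1* that fit kept 3 of the 4 and lost *PRR9* (0.0986). Over all 25889 genes it passed for 1758 in the WT and 1318 in *puchi-1*. DESeq2 also passed *PRR9* in the WT (0.0256) and *CCA1* in *puchi-1* (0.0215), with 11.7% and 5.5% of all genes. With the month covariate *PRR9* (0.115) and *GI* (0.129) were lost in *puchi-1*, where *ELF4* was gained (0.00843), and *PRR9* was gained in the WT (0.0288).

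The calls differed in how far single libraries carried them. The *PRR7* calls held on leaving out each library in turn in both genotypes, and the *CCA1* call in the WT was lost only without 24 hpg replicate 3 (adjusted p = 0.0717). The *LHY* call in the WT was lost in 11 of 15 cases, with an adjusted p of up to 0.0936 without 24 hpg replicate 3, and held without replicate 2 of 12, 18, or 36 hpg or replicate 1 of 24 hpg. In *puchi-1* the calls were lost in 8 of 15 cases for *TOC1* (up to 0.0904, without 18 hpg replicate 1), in 9 for *GI* (up to 0.108, without 24 hpg replicate 1), and in 10 for *PRR9* (up to 0.106, without 24 hpg replicate 1). The test of any change over the 5 time points, with no wave assumed, called 5 of 10 in the WT (*LHY*, *CCA1*, *PRR9*, *PRR7*, and *ELF4*), where 28.2% of all genes passed. It called 6 of 10 in *puchi-1* (*CCA1*, *PRR9*, *PRR7*, *TOC1*, *GI*, and *ELF4*), where 24.4% passed. On leaving out single libraries, these calls were lost in the WT in 5 cases for *LHY*, 3 for *ELF4* (each 12 hpg library), and 2 for *PRR9* (12 hpg replicates 1 and 2), with adjusted p of up to 0.142. In *puchi-1* they were lost in 11 cases for *CCA1* (up to 0.107), 3 for *PRR9*, and 2 for *ELF4*. In the other direction, the wave passed for *PRR9* in the WT without 12 hpg replicate 3 (0.0459) and for *CCA1* in *puchi-1* without 24 hpg replicate 3 (0.05). The test over time passed for *TOC1* in the WT without 24 hpg replicate 3 (adjusted p = 0.0194).

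The fitted amplitudes, from mean to crest on the log2 CPM scale, were small outside *PRR9* and *PRR7*. *PRR9* had 0.80 ± 0.31 (SE, n = 15) in the WT and 0.92 ± 0.17 in *puchi-1*, a fold of 3.01 and 3.57 from trough to crest. *PRR7* had 0.69 ± 0.22 and 0.59 ± 0.15. *CCA1* had 0.49 ± 0.11 and 0.42 ± 0.11, and *LHY* had 0.42 ± 0.08 and 0.33 ± 0.08, a fold of 1.80 in the WT and 1.58 in *puchi-1*. *GI* had 0.23 ± 0.12 in the WT and 0.46 ± 0.09 in *puchi-1*, and *TOC1* had 0.15 ± 0.06 and 0.23 ± 0.05. *ELF4* had 0.22 ± 0.08 in the WT and 0.25 ± 0.08 in *puchi-1*. For *PRR5*, *ELF3*, and *LUX* the amplitude was at most 0.09 in either genotype and below the SD between replicates (0.09 to 0.30). The wave held 72.6% of the variance of *LHY* in the WT, nearly all of the 74.1% that lay between time points. For *PRR7* in the WT it held 45.5% of the variance, while 96.4% lay between time points.

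Fitted crests were compared in hpg, leaving *ELF4* aside because its crest fell at the edge of the time course. In the WT the fitted crest lay at 22.2 ± 0.8 hpg (SE) for *LHY*, 22.5 ± 0.9 hpg for *CCA1*, 23.6 ± 1.7 hpg for *PRR9*, 25.3 ± 2.2 hpg for *GI*, and 26.3 ± 1.3 hpg for *PRR7*. *TOC1* crested at 32.5 ± 1.4 hpg. In *puchi-1* the crests were at 20.7 ± 0.9 hpg for *LHY*, 21.3 ± 1.0 hpg for *CCA1*, 23.9 ± 0.8 hpg for *PRR9*, 24.9 ± 0.9 hpg for *GI*, 26.8 ± 1.0 hpg for *PRR7*, and 32.5 ± 0.8 hpg for *TOC1*. *ELF4* had its fitted crest at the 12 and 36 hpg edge, at 12.1 hpg in the WT and 36.0 hpg in *puchi-1*. These are nearly the same phase of the fitted 24 h wave. The crests of neighbouring genes were not tested against each other. The order of *LHY* before *PRR7* before *TOC1* was the same in both genotypes.

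The agreement of replicates in phase differed between genes. Each numbered series of 5 libraries was fitted on its own, although the numbers do not tie libraries of different time points together. The sample titles number replicates otherwise in several groups, so the spreads below hold for this grouping only. The 3 crests of *PRR7* in the WT fell at 26.1, 26.6, and 26.3 hpg, a spread of 0.50 h. Those in *puchi-1* spread over 1.94 h. With a linear trend the WT crest of *PRR7* moved to 23.9 hpg, and its level at 36 hpg had not returned to that of 12 hpg. The spread of *PRR7* thus describes the fitted crest and not a phase shown to repeat. *GI* in *puchi-1* crested at 24.4, 25.3, and 25.1 hpg (spread 0.88 h), and *TOC1* in *puchi-1* at 33.3, 32.2, and 31.9 hpg. *LHY* spread over 2.26 h in the WT and 3.85 h in *puchi-1*, and *PRR9* over 3.53 h and 3.17 h. *CCA1* spread over 2.51 h in the WT and 6.26 h in *puchi-1*, where series 3 crested at 26.6 hpg with an amplitude of 0.08. *GI* and *TOC1* in the WT spread over 5.36 h and 4.57 h. The series of *PRR5* spread over 12.3 h in the WT, so they gave no phase.

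**Figure D2:**
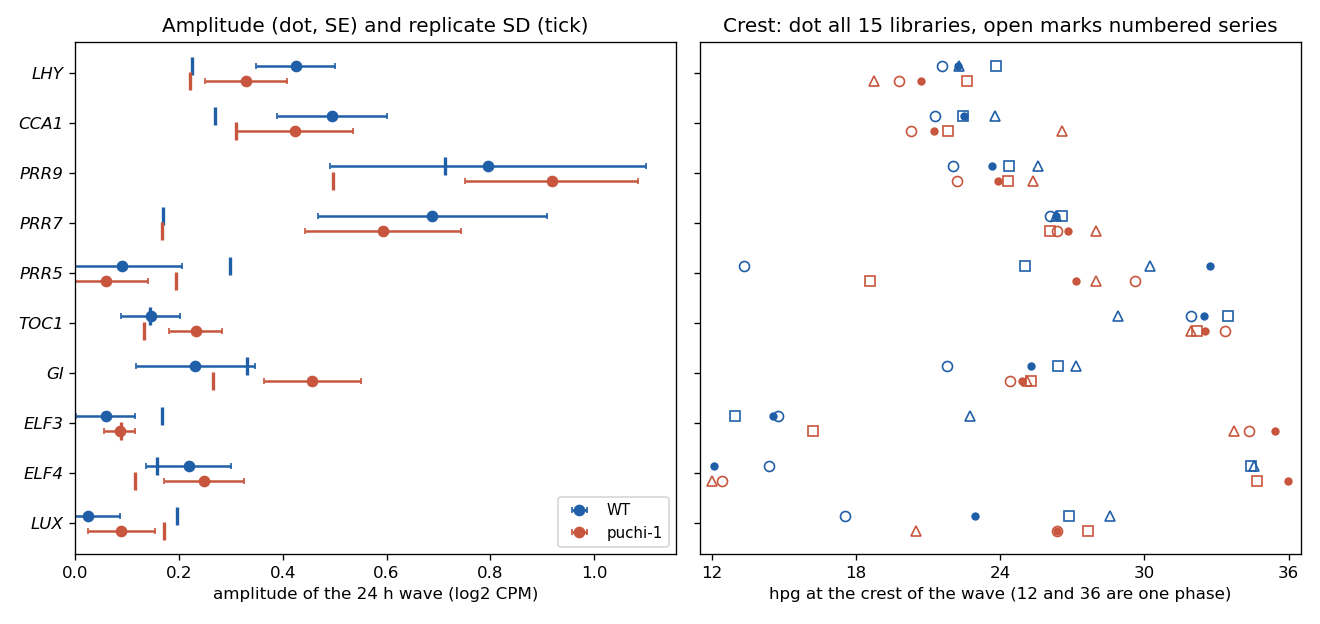
Left, amplitude of the fitted 24 h wave (dot, with its SE as bar) and the SD between replicates within a time point (vertical tick) on the log2 CPM scale. Right, the hpg at which the wave crests, from all 15 libraries (dot) and from each numbered series of 5 (open circle, square, and triangle), for the WT and *puchi-1*. The *PRR7* series of the WT lie within 0.50 h of each other, whereas those of *PRR5* are 12.3 h apart.

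An index was formed for each library from the known time of day of the genes, the mean of *LHY* and *CCA1* minus that of *TOC1*, *GI*, *ELF4*, and *LUX* on centred log2 CPM. Of the genes subtracted, *GI* crested near *PRR9* in these bends, with an r of 0.71 to *PRR9* and of -0.58 to *TOC1* over the 36 libraries, and *LUX* had an amplitude of at most 0.09. In the WT the index averaged -0.49 ± 0.19 (SD, n = 3) at 12 hpg, 0.45 ± 0.16 at 18 hpg, 0.49 ± 0.19 at 24 hpg, -0.02 ± 0.05 at 30 hpg, and -0.19 ± 0.28 at 36 hpg. In *puchi-1* it averaged -0.57 ± 0.30, 0.30 ± 0.22, 0.08 ± 0.31, -0.40 ± 0.26, and -0.16 ± 0.24 at those times. The 12 hpg libraries, at -0.85 to -0.25, did not overlap those of 18 hpg, at 0.05 to 0.63. At 24 hpg the WT libraries, at 0.29 to 0.68, overlapped those of *puchi-1*, at -0.24 to 0.38. The replicates of the WT at 30 hpg agreed best, within 0.08, and those of ‘No LR’ segments least, within 0.89 in the WT and 0.95 in *puchi-1*. The WT ‘No LR’ replicate 1 was at -0.33, against 0.55 and 0.37 in the others. In *puchi-1* replicate 1 was at 0.72 and replicate 3 at -0.23. Both replicates 1 were the libraries with high barrier markers, and they stood at opposite ends of the index.

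**Figure D3:**
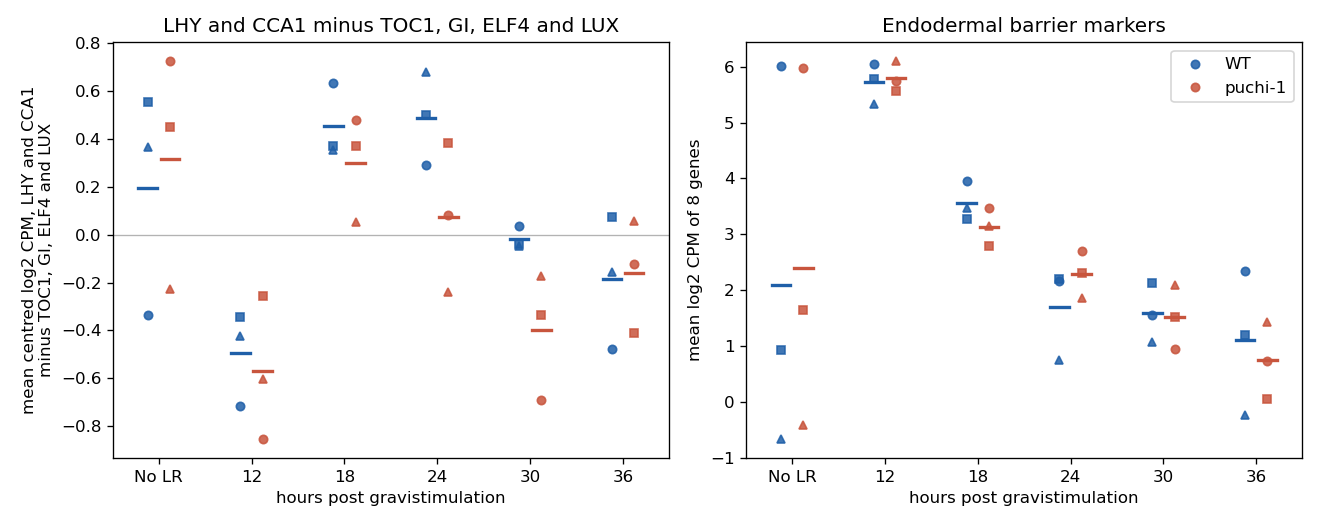
Left, the index of *LHY* and *CCA1* minus *TOC1*, *GI*, *ELF4*, and *LUX* in each library (y axis, centred log2 CPM) against the sampling point. Right, the mean log2 CPM of 8 endodermal barrier markers in the same libraries, with symbols for replicates 1 to 3 and bars for group means. The index is lowest at 12 hpg, where the barrier markers are at 5.34 to 6.10, and ‘No LR’ replicates 1 share that marker level.

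Samples taken 24 h apart should match for a gene with a stable cycle of 24 h. For that reason 36 hpg was compared with 12 hpg. The seedlings were in continuous light and the period was not estimated, so 12 and 36 hpg need not be the same phase. In the WT 2 of 10 genes differed, *PRR7* with a log2FC of 1.63 ± 0.23 (adjusted p = 2.74e-05) and *PRR9* with 1.59 ± 0.50 (adjusted p = 0.0149), where 36.2% of all genes did. In *puchi-1* only *PRR7* differed, by 0.95 ± 0.22 (adjusted p = 0.00211, 33.6% of all genes). The *PRR9* call was lost without 12 hpg replicate 1 (adjusted p = 0.0873) or 36 hpg replicate 1 (adjusted p = 0.118), the latter with 5.8 CPM against 3.17 and 1.92 CPM. *ELF4* was 0.46 lower at 36 hpg in the WT (adjusted p = 0.0528) and 0.45 lower in *puchi-1* (adjusted p = 0.0607). It passed in 6 of 7 alternatives in the WT (adjusted p of 0.000903 to 0.0451) and in 5 of 7 in *puchi-1* (0.00321 to 0.045), edgeR with the bends alone and DESeq2 among them. For *TOC1* the 95% interval of the difference was -0.12 to 0.33 in the WT and -0.14 to 0.30 in *puchi-1*. From 12 to 24 hpg 5 of 10 were called in each genotype, where all genes passed at a rate of 13.6% (WT) and 9.17% (*puchi-1*). From 18 to 30 hpg 1 of 10 was called in the WT (3.33% of all genes) and 0 in *puchi-1* (0.734%). In *puchi-1* 4 of 10 had an unadjusted p under 0.05, as did 4060 of all 25889 genes. DESeq2 called 2 of 10 there and 871 of 22370 genes.

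**Figure D4:**
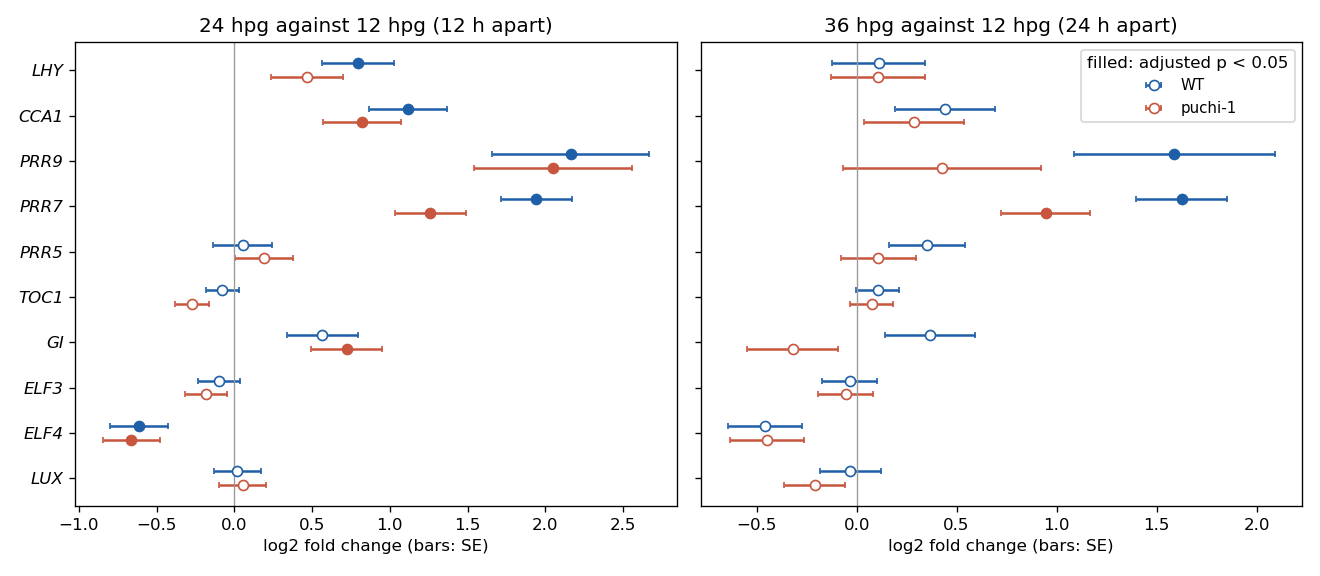
Log2 fold change (x axis, bars are SE) of each clock gene between 24 and 12 hpg (left) and between 36 and 12 hpg (right) in the WT and *puchi-1*, with filled points for an adjusted p under 0.05. *LHY* and *CCA1* in the WT are filled on the left and open on the right, whereas *PRR7* is filled in both panels.

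*PRR7* differed between ‘No LR’ segments and 12 hpg bends in both genotypes, and 4 other members did in *puchi-1*. *PRR7* in those of the WT was at 10.8, 23.4, and 25 CPM and at 28.2, 15.6, and 15.7 CPM in those of *puchi-1*. It was lower in the 12 hpg bend by 1.63 ± 0.23 in the WT (log2FC of -1.63, adjusted p = 0.000373) and by 1.44 in *puchi-1* (log2FC of -1.44, adjusted p = 0.000125). In *puchi-1* *CCA1* was also lower in the bend (log2FC of -0.72, adjusted p = 0.0369), as was *TOC1* (-0.39, adjusted p = 0.0101). *GI* was higher in the *puchi-1* bend (0.73, adjusted p = 0.0213), as was *LUX* (0.44, adjusted p = 0.0368). These were 1 of 10 in the WT (4.17% of all genes) and 5 of 10 in *puchi-1* (24.3%). Without WT ‘No LR’ replicate 1, the library with barrier markers at 6.01, 5 of 10 were called in the WT, with adjusted p of 0.0184 for *LHY*, 0.0154 for *CCA1*, 0.00457 for *PRR9*, and 5.59e-05 for *ELF4* besides *PRR7*, and 26.1% of all genes passed as well. *PRR9* also passed without WT 12 hpg replicate 3 (0.0332), and in *puchi-1* *LHY* passed without ‘No LR’ replicate 3 (0.0145) and *ELF4* without ‘No LR’ replicate 1 (0.0159). Without *puchi-1* ‘No LR’ replicate 1 the *CCA1* call was lost (adjusted p = 0.198), and without replicate 2 those of *CCA1* (0.0886), *GI* (0.0995), and *LUX* (0.164). The *GI* and *LUX* calls were also lost without replicate 3 (0.0691 and 0.0772) or without 12 hpg replicate 1 (0.168 and 0.181), where *CCA1* (0.0993) and *TOC1* (0.0528) were lost as well. The calls of *CCA1* were lost without 12 hpg replicate 2 (0.0587) or 3 (0.0981), and that of *LUX* without 12 hpg replicate 3 (0.0669). With the month covariate the *puchi-1* calls of *CCA1* (0.103) and *TOC1* (log2FC of -0.23, adjusted p = 0.179) were lost. Replicates 2 and 3 of the *puchi-1* segments carry the same title but for an added “bis”, so the labels do not show that these were separate pools. Both sampling times given for these segments differ from or equal 12 hpg by at most 3 h, so the position on the root and the harvest time cannot be told apart.

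With all libraries in the fit, a single clock gene was called between the genotypes, and at a single sampling point. *GI* in ‘No LR’ segments was at 50.5, 65.9, and 49.1 CPM in the WT and at 32, 24.3, and 26.9 CPM in *puchi-1*, with no overlap. The log2FC of *puchi-1* against WT was -0.99 ± 0.23 (adjusted p = 0.0313), and 1.06% of all genes passed in that comparison. The call was lost without WT replicate 2 (adjusted p = 0.111), without *puchi-1* replicate 2 (0.155), or without *puchi-1* replicate 3 (0.0843), the pair of libraries with the shared title. In the bends edgeR's quasi-likelihood test called 0 of 10 at 12 hpg (0.0734% of all genes), 18 hpg (0.421%), 24 hpg (0.695%), 30 hpg (0.498%), and 36 hpg (0.954%). Of the 10, 0 had an unadjusted p under 0.05 at 12, 18, and 30 hpg, 2 did at 24 hpg, and 3 at 36 hpg. DESeq2 called 0 at each. Of all 25889 genes, 1917, 2609, and 1543 had such a p at 12, 18, and 30 hpg. At 24 hpg 3769 of all genes did, and at 36 hpg 2734. The 2 members at 24 hpg were *PRR7*, with a log2FC of -0.49, and *TOC1*, with -0.25. With the bends alone in the fit, edgeR called *PRR7* at 24 hpg (adjusted p = 0.0454), where 763 of 25505 genes passed. The 3 members at 36 hpg were *PRR9* (-1.04), *PRR7* (-0.49), and *GI* (-0.54). At 24 hpg the 95% interval for *LHY* was -0.91 to 0.06 on the log2 scale, which does not exclude a lower level in *puchi-1*.

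The course itself was also compared between genotypes. For the difference of the 24 h wave and for that of the 4 steps between time points, 0 of 10 were called and 0 had an unadjusted p under 0.05, by edgeR and by DESeq2. Over all genes the wave difference passed for 0 genes (0%), with 1008 at an unadjusted p under 0.05 and 8 called by DESeq2, and the difference over time passed for 4 genes (0.0155%). The crest of *LHY* lay 1.54 h earlier in *puchi-1* than in the WT, with a 95% interval of 3.97 h earlier to 0.88 h later. The crest of *CCA1* lay 1.25 h earlier (4.11 h earlier to 1.60 h later). For *PRR7* the interval ran from 2.85 h earlier to 3.87 h later, and for *TOC1* from 3.34 h earlier to 3.43 h later. The amplitude of *GI* was 0.23 higher in *puchi-1*, with an interval of -0.08 to 0.53. These intervals do not show that the genotypes keep the same phase.

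Across the 36 libraries the level of *LHY* went with that of other members, most of all with *CCA1*. Pearson's r was 0.90 and Spearman's rho 0.90 for *CCA1*, each with a permutation p of 1e-05, the smallest that 100000 permutations can give (adjusted over 9 pairs, 9.0e-05). For *PRR9* r was 0.64 and rho 0.63 (permutation p of 3.0e-05 and 5.0e-05), and for *PRR7* they were 0.49 and 0.44 (0.00247 and 0.00749). The adjusted p of *PRR9* was 0.000135 and that of *PRR7* 0.00741. Without the 2 libraries whose *LHY* level lay farthest from the median, r was 0.89, 0.68, and 0.40. Over group-centred values, which remove time and genotype, r was 0.81 for *CCA1*, 0.53 for *PRR9*, and 0.72 for *PRR7*. Libraries of 12 groups share time points, so the points are not independent. *TOC1* had an r of -0.17 and a rho of -0.24 over all libraries (permutation p of 0.325 and 0.153). Its r was -0.40 without the 2 libraries of farthest *LHY* level and -0.38 in the 30 bends. Over group-centred values the r of *TOC1* was 0.06, and 0.15 in the bends, so no negative relation remained within groups.

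The month in the sample titles, whose meaning is not stated, was used to look within title months. Of the 7 June titles 1 gives another year than the other 6, and the August titles give no year. Libraries within a month come from different groups and were permuted freely, so differences between groups enter the p-values below. Of 27 relations within June, July, and August, the *LHY* to *CCA1* relation held in each month. Its r was 0.97 (rho 1.0, n = 7, exact permutation p of 0.000595 and 0.000397), 0.87 (rho 0.81, n = 12, permutation p of 0.00031 and 0.00212), and 0.95 (rho 0.90, n = 8, exact permutation p of 0.000248 and 0.00456). *PRR9* had an r of 0.66, 0.59, and 0.88 in those months, and after adjustment over the 27 only August passed (adjusted permutation p = 0.0217). *PRR7* had 0.34, 0.38, and 0.52 and passed in no month (adjusted permutation p of at least 0.389). *TOC1* was negative in each month, with r of -0.51 in June, -0.82 in July, and -0.35 in August, and passed in July (adjusted permutation p = 0.0058). *PRR5* had an r of -0.90 in June (adjusted exact permutation p = 0.00964) and of 0.01 and 0.28 in July and August, so its relation did not hold across months. Without the June library of another year, a choice made after seeing the data, r was 0.97 for *CCA1* and -0.85 for *PRR5* (n = 6, exact permutation p of 0.00139 each). The 4 March libraries and the 5 libraries with no date were too few for such a value.

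Further clock genes were tested in the same way. Of 26 such genes the wave test called 1 in each genotype (3.82% of all genes passed for the WT and 1.84% for *puchi-1*), *LNK1*, a co-activator that works with RVE factors. *LNK1* went from 11.8 ± 2.4 CPM (SD, n = 3) at 12 hpg to 25.2 ± 2.6 CPM at 24 hpg in the WT and from 13.2 ± 2.9 to 25.4 ± 4.1 CPM in *puchi-1* (adjusted p of the wave, 0.027 and 0.0168 by edgeR). Its crest lay at 24.3 hpg in the WT and 24.2 hpg in *puchi-1*, between those of *CCA1* and *PRR7*. Of 12 clock-output genes the test called 1 in the WT, the catalase gene *CAT3* (adjusted p = 0.0183), and 0 in *puchi-1*. In *puchi-1* 3 of the 12 had an unadjusted p under 0.05 by edgeR, as did 4114 of all 25889 genes. *CAT3* was at 78.5 ± 18.2 CPM at 12 hpg and at 475 ± 59.0 CPM at 30 hpg in the WT, and 36 hpg was still at 464 ± 130.5 CPM. The other genes of lowest p in the WT were *CDF2*, *LNK2*, *JMJD5*, *FKF1*, *CDF3*, and *LNK4*, with adjusted p of 0.0748 to 0.19. In *puchi-1* they were *PRR3*, *LNK4*, *BBX24*, *JMJD5*, *CAT3*, *COR27*, and *BOA*, with adjusted p of 0.0735 to 0.155. *LNK4*, a smaller relative of *LNK1*, crested at 24.0 and 24.4 hpg, and *COR27*, an evening gene, at 14.0 hpg in *puchi-1*. From 12 to 24 hpg, 3 of the 26 clock genes rose and 1 fell in the WT, and 2 rose and 3 fell in *puchi-1*, against 13.6% (WT) and 9.17% (*puchi-1*) of all genes called in either direction. Their median log2FC was 0.01 and -0.03, beside 0.02 and 0.03 over all genes. Of the 12 output genes 5 rose and 1 fell in the WT and 2 rose in *puchi-1*, with medians of 0.88 and 0.50. No gene of either list was called between genotypes in any group.

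The genes whose levels were most like *LHY* over the 36 libraries, among 19084 genes with a mean of at least 1 CPM, were *LNK2* (Pearson's r of 0.78), *SLP1* (0.74), *COL5* (0.72), AT1G71480 (0.71), and AT3G01060 (0.71). *LNK2* kept an r of 0.79 after group means were removed. Most like *TOC1* were AT1G69890 (0.86), AT5G54170 (0.85), AT5G58720 (0.84), *PME1* (0.84), and *COR28* (0.83), a clock gene of the evening. The libraries differ in depth, and those of a group share a time point, so these values describe likeness only.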

How the data were processed

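RNA was sequenced from 36 libraries in 12 groups of 3. The 10 members and the gene lists were chosen with earlier results of these data known. According to the labels and the study's methods, the authors demultiplexed with bcl2fastq (version 2.20), aligned to TAIR10.1 with Bowtie2 (version 2.3.5.1) under TopHat2 (version 2.1.1), and used SAMtools (version 1.9). They counted reads per gene and strand with featureCounts (version 2.0.0). The deposited table holds raw counts with no normalization, as the authors left them.

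The models were fitted by edgeR (version 4.0.16, in R version 4.3.3) to genes with at least 15 reads over all libraries, TMM scaling, and 12 group means with 24 residual degrees of freedom. Quasi-likelihood tests were adjusted by the Benjamini-Hochberg method over all 25889 genes tested, with calls at an adjusted p under 0.05. The 24 h wave is the least-squares cosine and sine over the 5 bend means, and amplitudes and crests were fitted to log2 CPM (prior count of 2). Intervals at 95% used the 24 residual degrees of freedom. The procedure was run on simulated counts with a common spread for all genes and no batch, which does not show how it behaves on these data. The study used DESeq2 (here version 1.42.0), which was an alternative, as were other scaling, filters, the bends alone, a replicate block, a month covariate, a trend, periods of 22 and 26 h, and leaving out each library. The source names in the labels number replicates 1 to 3 in each group, and these numbers are used here. The sample titles carry other replicate numbers in several groups. Replicates 2 and 3 of *puchi-1* ‘No LR’ segments share a title apart from “bis”. The p-values measure the spread between libraries, which may be technical there. No 2 libraries had identical counts, and those 2 differed beyond sampling noise (chi-square per gene of 67.8, against 25.1 to 350.3 over all replicate pairs).

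Named genes were the 10 members, the 8 further clock or output genes of lowest p in the wave test of each genotype, and the 5 genes most correlated with *LHY* and with *TOC1*. All marker lists named are described above or below, except that light-harvesting genes had mean log2 CPM of 2.05 to 4.88 and primordium genes of 1.48 to 3.08 over the libraries.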

Additional observations from a re-analysis of the deposited data

How the results depend on the processing

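All values are the number of the 10 clock genes called, unless stated. No called log2FC changed sign under any alternative. With the bends alone in the fit, the wave called 5 (WT) and 7 (*puchi-1*), where 18.3% and 12% of all genes passed. In *puchi-1* that fit called 2 for 36 against 12 hpg (10335 of 25505 genes) and 2 from 18 to 30 hpg (2534). Between the genotypes at 24 hpg it called 1, *PRR7* (763 of 25505 genes). With a linear trend or a period of 22 h the wave called 1 (WT) and 0 (*puchi-1*). Of all 25889 genes, 8 and 15 passed with the trend and 61 and 4 with 22 h. Without 12 hpg, an alternative chosen after seeing the data, the wave called 1 in the WT, where 1758 of all genes passed. With a period of 26 h it called 4 and 5 (17.4% and 9.57% of all genes), so the calls do not fix the period. The month covariate called 3 over time in *puchi-1* (7333 of all 25889 genes) and 3 from 12 to 24 hpg in *puchi-1* (6166). It called 2 for 36 against 12 hpg in *puchi-1* (9416) and 3 for 12 hpg against ‘No LR’ in the WT (3871). DESeq2 called 2 for 36 against 12 hpg (9250 of 24880 genes) and 2 from 18 to 30 hpg in *puchi-1* (871 of 22370). It also called 3 for 12 hpg against ‘No LR’ in the WT (2189 of 22872 genes). RLE size factors called 2 for 36 against 12 hpg in *puchi-1* (8586 of 25889 genes). Without a filter, 18 to 30 hpg in the WT called 0 (717 of 30257 genes). With filterByExpr 12 hpg against ‘No LR’ in the WT called 2 (1275 of 22557 genes). Why these counts moved was not tested.

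The linear trend put the crest of *PRR7* at 23.9 hpg in the WT and 25.4 hpg in *puchi-1*, and that of *GI* in *puchi-1* at 25.5 hpg. A prior count of 0.5 moved no amplitude, crest, or correlation beyond the spread between replicates or across its threshold.

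Same-numbered libraries deviated together in 2 of 14 pairs of groups checked, so the numbers mark no pairing that runs through the series. The WT and *puchi-1* libraries of 18 hpg were among these, with r of 0.68, 0.35, and 0.70 for replicates 1 to 3. Their titles give March, June, and July in both genotypes. Pairing by the dates in the titles was not checked in this way. With the replicate block the wave called 3 (WT) and 4 (*puchi-1*), as without it. Of all 25889 genes, 1298 and 578 passed with the block. The test over time lost *CCA1* in *puchi-1* (edgeR, adjusted p = 0.051). With the block, 36 against 12 hpg called 2 in *puchi-1* (9170 of all genes), and 12 hpg against ‘No LR’ called 2 in the WT (1603).

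Leaving out single libraries gave 0 to 1 for *GI* in ‘No LR’ segments between genotypes, 2 to 5 over time in the WT and 4 to 6 in *puchi-1*, and 1 to 3 for the wave in the WT and 1 to 4 in *puchi-1*. It gave 1 to 2 for 36 against 12 hpg in the WT, 3 to 5 in the WT and 2 to 3 in *puchi-1* for 24 against 12 hpg, 0 for 18 to 30 hpg in the WT, and 1 to 5 for 12 hpg against ‘No LR’ in each genotype. In that last comparison the calls over all genes moved as well, from 156 to 6734 in the WT and from 3367 to 8582 in *puchi-1*. The crest of *PRR7* in the WT then lay between 26.04 and 26.8 hpg and that of *GI* in *puchi-1* between 24.4 and 25.3 hpg. Of 1480 single-gene values under alternatives other than a left-out library, 1412 stayed on the same side of the threshold, as did 1917 of 2040 with a library left out. With 3 libraries a group and 15 reads as the limit, *PRR9*, at 19 reads in its lowest library, was measured least precisely.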
